A study of Mus musculus with 36 samples.

Results

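The addition of TNF to a high dose of IL-6 was examined in mouse hypothalamus by setting 6 arrays of mice given both cytokines (TNF + IL-6 High) against 6 arrays of mice given the same dose of IL-6 alone (IL-6 High). These 12 arrays were taken by their labels from the 36 arrays of the series, and the saline controls were not used. All mice were male C57BL/6 mice that received an intraperitoneal injection of 50 µl shortly before the dark phase and were killed 5 h later. TNF + IL-6 High mice received 15 pg TNFα with 800 pg IL-6, and IL-6 High mice received 800 pg IL-6. To ask whether the effect of TNF depended on the dose of IL-6, the same difference was taken between 6 TNF + IL-6 Low arrays (15 pg TNFα with 50 pg IL-6) and 6 IL-6 Low arrays (50 pg IL-6). Each array holds the RNA of 1 mouse, and no source used here gives the age of the mice. Levels are log2 intensities on Affymetrix Mouse Gene 1.1 ST arrays, on which a difference of 1 is a doubling.

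TNF acts on cells through the receptors TNFR1 and TNFR2, which release the transcription factor NF-kB from its inhibitor IkB-alpha. NF-kB then induces cytokines and chemokines as well as its own inhibitors, among them Nfkbia (which encodes IkB-alpha) and Tnfaip3 (A20). IL-6 binds IL-6R and gp130, which activate JAK kinases and the transcription factor STAT3, and STAT3 induces Socs3, an inhibitor of the same receptor. The hypothalamus controls feeding through neurons that make appetite-stimulating peptides such as NPY and appetite-suppressing peptides such as those cut from POMC, and both cytokines are known to reduce food intake.

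With TNF added to the high dose of IL-6, no gene passed the test after adjustment. The NF-kB feedback genes Nfkbia and Tnfaip3 differed by less than their standard errors, the STAT3 feedback genes Socs3 and Socs1 differed by 0.14 ± 0.12 and -0.19 ± 0.11 on the log2 scale (SE), and the lowest mean relative to IL-6 High was that of Oxt, the precursor of oxytocin. Of 14644 genes tested with limma, 0 (0%) had an adjusted p under 0.05, and the smallest adjusted p was 0.999, which therefore holds for every gene named below. At an unadjusted p under 0.05, 106 genes (0.724%) were higher in TNF + IL-6 High and 264 (1.8%) were lower. The split depended on the scaling: it was 212 higher and 120 lower after median centring and 178 higher and 167 lower after quantile normalization. The number lower was 983 without TNF + IL-6 High replicate 1, 479 without IL-6 High replicate 4, 173 without IL-6 High replicate 2, 161 without TNF + IL-6 High replicate 5 and 149 without IL-6 High replicate 3. The number higher was 205 without TNF + IL-6 High replicate 1, 166 without TNF + IL-6 High replicate 5, 161 without IL-6 High replicate 4 and 67 without TNF + IL-6 High replicate 4. None of these settings gave a gene past an adjusted p of 0.05.

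The arrays were alike overall. The median correlation between arrays was 0.987 within TNF + IL-6 High, 0.989 within IL-6 High and 0.988 between the groups. The median SD of a gene within a group was 0.16 and the median standard error of a difference was 0.09 on the log2 scale, while 95% of genes differed by less than 0.20. The median difference of all genes was -0.03, and 5506 genes (37.6%) had a higher mean in TNF + IL-6 High, which is the share against which the gene lists below are read. TNF + IL-6 High replicate 2 and IL-6 High replicate 4 stood apart in markers of other brain cells and regions. Of the 106 named genes, 51 turned in sign or changed by over 1.5 times when some 1 of the 12 arrays was left out. This held for 26 genes without the first of these arrays and for 13 without the second. Of 45 list medians, 25 turned in sign when some 1 array was left out. Values with single arrays left out are given for the results described in detail.

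**Figure D1:**
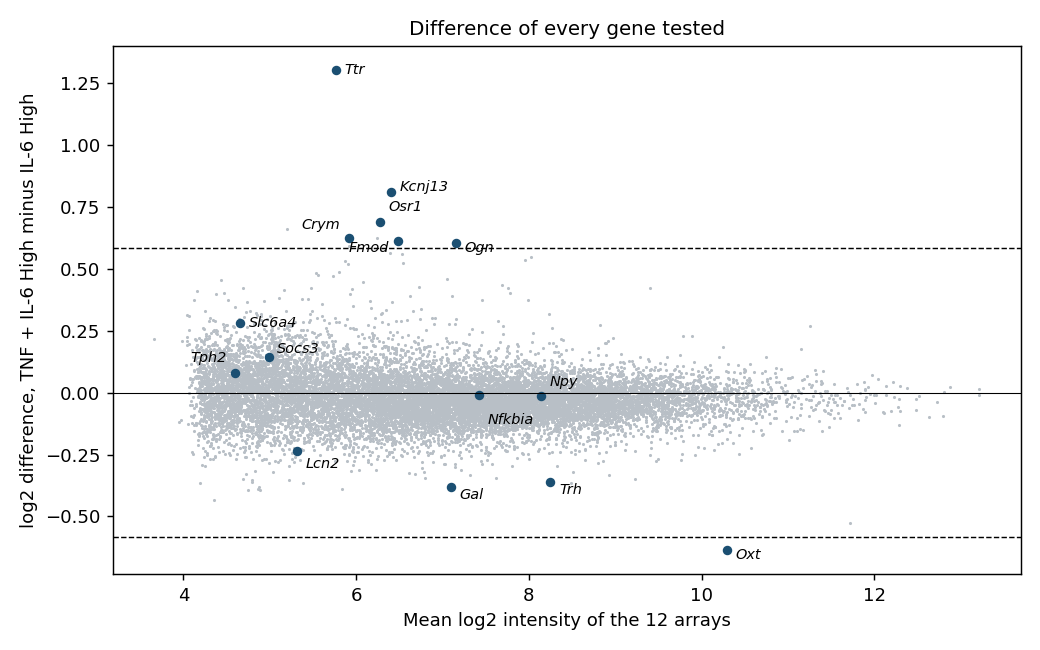
Difference of each gene between TNF + IL-6 High and IL-6 High (vertical axis, log2) against its mean log2 intensity over the 12 arrays (horizontal axis), with 1 point per gene and dashed lines at a fold of 1.5. Ttr lies highest at 1.30 and Oxt lowest at -0.64, while Nfkbia and Npy lie at 0 within 0.02.

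Promoters of 2 feedback genes are shown because their products are the standard readouts of the pathways that the injected cytokines use. They are RefSeq sequences of build GRCm38.p6, each of 300 bases around the gene's start and on the strand of the gene. In Socs3 (chr11:117969317-117969616, minus strand) capitals mark the only match to the STAT motif TTCNNNGAA, which begins at position -154 from the start. In Nfkbia (chr12:55492598-55492897, minus strand) capitals mark the only match to the NF-kB motif GGGANNTTCC, here read on the reverse strand and beginning at position -29.
Socs3: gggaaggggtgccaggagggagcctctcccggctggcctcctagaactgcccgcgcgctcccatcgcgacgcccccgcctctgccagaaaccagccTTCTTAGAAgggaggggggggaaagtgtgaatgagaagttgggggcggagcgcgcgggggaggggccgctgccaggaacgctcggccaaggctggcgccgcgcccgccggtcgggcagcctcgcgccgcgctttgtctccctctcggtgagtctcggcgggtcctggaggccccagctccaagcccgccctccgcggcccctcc
Nfkbia: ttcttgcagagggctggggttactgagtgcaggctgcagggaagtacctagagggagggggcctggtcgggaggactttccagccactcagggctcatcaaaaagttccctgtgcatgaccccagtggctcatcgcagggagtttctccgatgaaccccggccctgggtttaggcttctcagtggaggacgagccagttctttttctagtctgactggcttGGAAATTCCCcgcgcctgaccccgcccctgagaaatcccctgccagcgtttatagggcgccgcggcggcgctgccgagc
Both strands were searched for each motif. Among 32851 promoters of the same length, 2726 (8.3%) held the STAT motif and 482 (1.47%) the NF-kB motif. A match describes the letters of this window only.

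Socs3 had a lowest, median and highest log2 intensity of 4.61, 5.11 and 5.35 in TNF + IL-6 High, against 4.70, 4.90 and 5.07 in IL-6 High. The groups overlapped, although replicates 1, 5 and 6 of TNF + IL-6 High lay above every IL-6 High array. The difference was 0.14 ± 0.12 (SE, n = 6 each), with a 95% interval of -0.11 to 0.40. Nfkbia had 7.18, 7.39 and 7.69 in TNF + IL-6 High and 7.10, 7.42 and 7.82 in IL-6 High. Both groups spread over nearly the same range, and the difference was -0.01 ± 0.13, with a 95% interval of -0.27 to 0.25. Tnfaip3, which encodes the NF-kB inhibitor A20, had 4.66, 4.94 and 5.01 in TNF + IL-6 High and 4.75, 4.90 and 5.06 in IL-6 High, a difference of 0.00 ± 0.09. The 95% intervals of these 3 genes leave room for changes of either sign. They run from -0.11 to 0.40 in Socs3, -0.27 to 0.25 in Nfkbia and -0.19 to 0.19 in Tnfaip3.

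The receptors for both cytokines were measured. Tnfrsf1a, the receptor TNFR1, had 5.73, 6.15 and 6.30 in TNF + IL-6 High and 5.82, 6.12 and 6.34 in IL-6 High, and the difference was 0.00 ± 0.10. Tnfrsf1b, the receptor TNFR2, was higher by 0.08 ± 0.09. For the IL-6 receptor subunits, the difference was 0.08 ± 0.08 in Il6ra and 0.04 ± 0.08 in Il6st, which encodes gp130. None of the 4 receptor genes separated the groups. Tnf and Il6 themselves did not exceed the minimum intensity (over 20 on at least 3 of the 12 arrays) and were not tested.

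Of the 24 genes of NF-kB signal transduction, 10 had a higher mean in TNF + IL-6 High, with a median difference of -0.01, and of 24 NF-kB response genes 14 were higher, with a median of 0.00. In both lists 0 genes had an unadjusted p under 0.05. Rel, an NF-kB subunit, differed by 0.17 ± 0.11 and Cebpd, a transcription factor of the acute-phase response, by 0.17 ± 0.12. Traf1, an adaptor of TNF receptors, differed by -0.14 ± 0.10. The chemokine gene Ccl2, which attracts monocytes, had 4.09, 4.17 and 4.42 in TNF + IL-6 High and 4.00, 4.38 and 4.66 in IL-6 High, a difference of -0.15 ± 0.11. Csf1, a growth factor of microglia, differed by 0.10 ± 0.07. Among 14 TNF superfamily ligands and receptors 9 were higher (median 0.02), the widest being Cd40, a receptor of antigen-presenting cells, at 0.22 ± 0.12. The 12 interleukin-1 and inflammasome genes had a median of 0.02, with 7 higher. Il1r2, a decoy receptor of interleukin-1, was the only 1 of them at an unadjusted p under 0.05, where 1.8% of all genes were lower. It differed by -0.25 ± 0.12 and lay near the minimum intensity, with medians of 4.12 in TNF + IL-6 High and 4.36 in IL-6 High. The receptor antagonist Il1rn differed by 0.18 ± 0.10.

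The genes of the IL-6 pathway gave a similar picture. Of 13 genes of JAK-STAT3 signal transduction 2 were higher and 11 lower, with a median of -0.04 close to that of all genes. After median centring 4 were higher with a median of -0.01. Without TNF + IL-6 High replicate 2, 0 of 13 were higher (median -0.05), against 32.7% of all genes. With single arrays left out the median ran between -0.06 and -0.02. Jak1, the kinase bound to gp130, differed by -0.09 ± 0.06, and Stat5a, a relative of STAT3, by -0.13 ± 0.09. Socs1, a second inhibitor of the JAK kinases, had 5.41, 5.66 and 5.88 in TNF + IL-6 High and 5.54, 5.79 and 6.11 in IL-6 High, a difference of -0.19 ± 0.11, opposite in sign to that of Socs3. Osmr, the receptor subunit for the related cytokine oncostatin M, differed by 0.13 ± 0.15. Of 21 STAT3 response genes 9 were higher, with a median of -0.02 (0.01 after median centring) and 0 at an unadjusted p under 0.05. Gfap, the astrocyte filament protein, had 8.61, 9.06 and 9.34 in TNF + IL-6 High and 8.57, 8.81 and 8.96 in IL-6 High, a difference of 0.20 ± 0.12. Fgl2, a prothrombinase, differed by 0.31 ± 0.19.

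Lcn2, the acute-phase protein lipocalin-2, varied widely in both groups. It had 4.50, 5.27 and 5.82 in TNF + IL-6 High and 4.41, 5.42 and 6.79 in IL-6 High, a difference of -0.24 ± 0.34 with a 95% interval of -0.96 to 0.48. Without IL-6 High replicate 4, the highest array, the difference was 0.04. Of 13 acute-phase genes 6 were higher (median -0.04), and Itih3, a plasma protease inhibitor chain, differed by -0.25 ± 0.14 (-0.14 without TNF + IL-6 High replicate 2). Interferon response genes were higher in 18 of 27, with a median of 0.03 (15 of 26 without TNF + IL-6 High replicate 2). With an intensity over 50 the median of this list was -0.02. Usp18, an inhibitor of the interferon receptor, differed by 0.17 ± 0.12. Psmb10, an immunoproteasome subunit, differed by -0.20 ± 0.10. Of 13 genes of MHC and antigen presentation 7 were higher (median 0.05). The class II genes H2-Aa and Cd74, which load and present peptides, differed by 0.32 ± 0.16 and 0.27 ± 0.15. Of 21 chemokine ligands and receptors 10 were higher (median 0.00). The largest difference among them was that of Ccl3, a macrophage chemokine, with 4.06, 4.55 and 4.80 in TNF + IL-6 High and 3.62, 4.36 and 4.56 in IL-6 High (0.29 ± 0.15). Among 19 genes of prostaglandin synthesis and receptors, which carry fever and sickness signals across brain vessels, 12 were higher (median 0.05). Pla2g4a, the phospholipase that releases arachidonic acid, differed by 0.33 ± 0.17 with its highest value, 6.45, on TNF + IL-6 High replicate 2, without which the difference was 0.17. Ptgds, a prostaglandin D synthase of meninges and choroid plexus, differed by 0.27 ± 0.14.

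**Figure D2:**
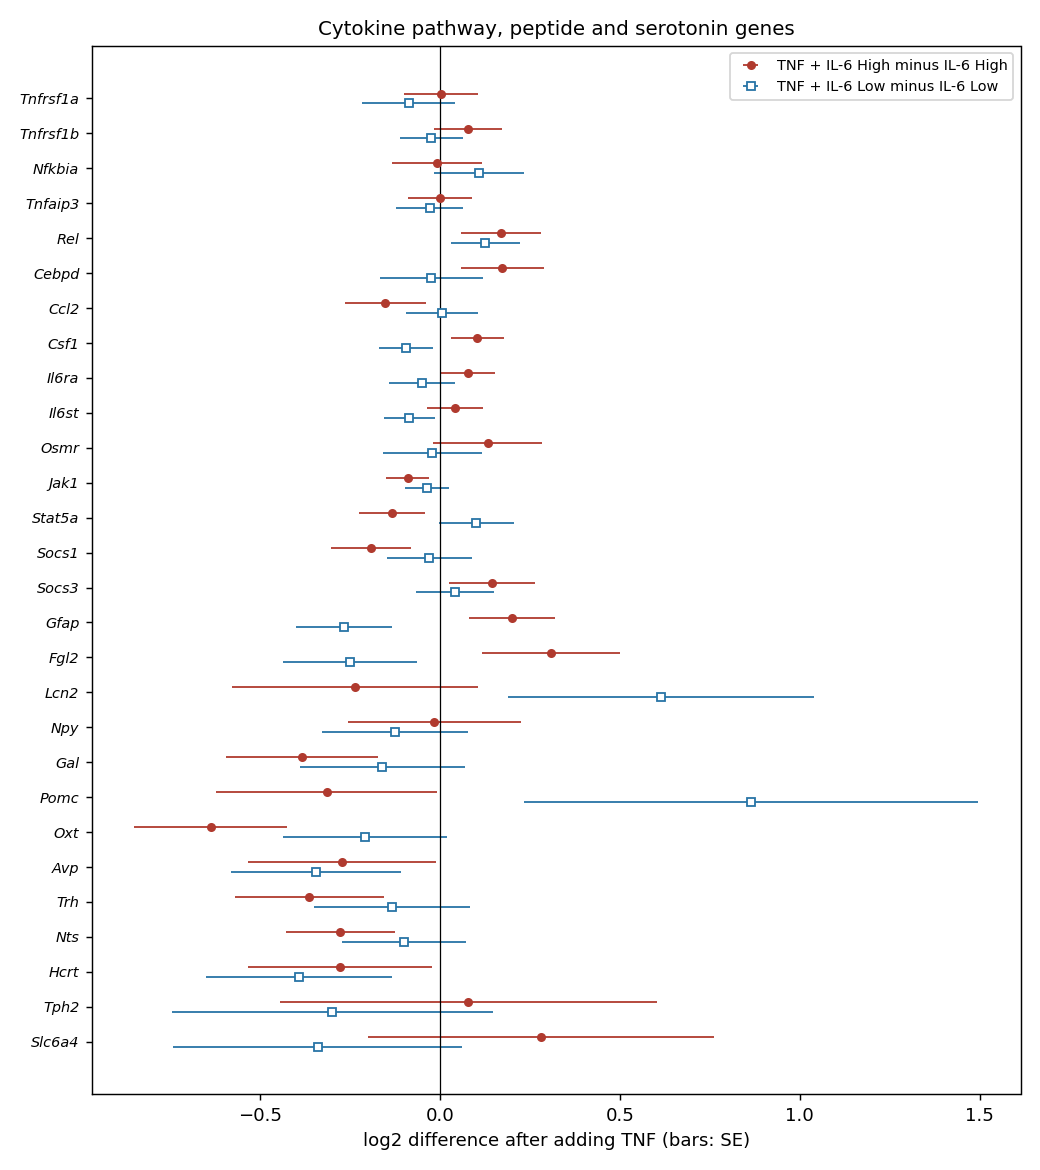
Log2 difference after adding TNF to the high dose (filled circles, TNF + IL-6 High minus IL-6 High) and to the low dose of IL-6 (open squares, TNF + IL-6 Low minus IL-6 Low), with bars of 1 standard error and 6 arrays per group. The receptors and the feedback genes Nfkbia and Tnfaip3 lie near 0 at the high dose, and Oxt lies farthest below at -0.64.

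Most genes of appetite-suppressing peptides had lower means with TNF added, none of them past the adjusted test, and so had most genes tested. Oxt, on chromosome 2, makes the precursor of oxytocin, a peptide of the paraventricular and supraoptic nuclei that lowers feeding. It had a lowest, median and highest log2 intensity of 8.87, 10.17 and 10.53 in TNF + IL-6 High, against 10.02, 10.69 and 10.93 in IL-6 High. The groups overlapped, with 5 IL-6 High arrays above every TNF + IL-6 High array and replicate 4 of IL-6 High below 4 of them. The difference was -0.64 ± 0.21 with a 95% interval of -1.08 to -0.19, and Oxt was the only 1 of 14644 genes (0.00683%) that was lower by a fold over 1.5. The number of such genes was 0 without IL-6 High replicate 3, 3 without replicate 1 or replicate 3 of TNF + IL-6 High, and 2 without TNF + IL-6 High replicate 4 or IL-6 High replicate 2 or 4. Without TNF + IL-6 High replicate 2, the lowest array, the difference was -0.42, and without IL-6 High replicate 4 it was -0.75. Without both of these arrays it was -0.53. At -0.42 and at -0.53 Oxt was not lower by a fold over 1.5, and the 1 gene that was lower by it was not Oxt. In bulk tissue fewer cells of a type and less RNA per cell cannot be told apart, and neither can the share of each hypothalamic nucleus in the dissected piece.

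Of 18 appetite-suppressing peptide genes 2 were higher and 16 lower, with a median of -0.08 (4 higher and a median of -0.05 after median centring). Without TNF + IL-6 High replicate 2, 6 of 18 were higher with a median of -0.07, and without this array and IL-6 High replicate 4 the median was -0.03. With single arrays left out the median ran between -0.12 and -0.05. Trh, thyrotropin-releasing hormone, had 7.15, 8.21 and 8.40 in TNF + IL-6 High and 7.71, 8.45 and 9.0 in IL-6 High, a difference of -0.36 ± 0.21. Nts, the precursor of neurotensin, had 6.56, 7.44 and 7.64 in TNF + IL-6 High and 7.22, 7.67 and 7.78 in IL-6 High, a difference of -0.28 ± 0.15. The lowest value of both genes came from TNF + IL-6 High replicate 2, without which the differences were -0.18 for Trh and -0.13 for Nts, while without IL-6 High replicate 4 they were -0.51 and -0.35. Ucn3, urocortin 3, a ligand of the CRF2 receptor, differed by -0.27 ± 0.17 (-0.14 without TNF + IL-6 High replicate 2). Avp, the vasopressin gene beside Oxt on chromosome 2, which was chosen after its values were seen, had 8.34, 9.85 and 10.22 in TNF + IL-6 High and 8.97, 9.94 and 10.34 in IL-6 High. Its difference was -0.27 ± 0.26, and it was -0.02 without TNF + IL-6 High replicate 2 but -0.46 without IL-6 High replicate 4. Pomc, also a pituitary gene, had 5.46, 6.01 and 6.80 in TNF + IL-6 High and 5.59, 6.20 and 7.82 in IL-6 High, a difference of -0.31 ± 0.31. It rested on 1 array, and without IL-6 High replicate 1 the difference was -0.03.

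Among 8 appetite-stimulating peptide genes 3 were higher, with a median of -0.07, which was 0.02 without TNF + IL-6 High replicate 2 and -0.19 without IL-6 High replicate 4. Npy, whose neurons of the arcuate nucleus drive feeding, had 7.15, 8.18 and 8.87 in TNF + IL-6 High and 7.26, 8.24 and 8.59 in IL-6 High. The medians differed little, and the difference was -0.02 ± 0.24. Its 95% interval of -0.52 to 0.49 leaves room for a change of either sign. The lowest value of each group came from the 2 arrays that stood apart, and without them the difference was 0.00. Gal, galanin, differed by -0.38 ± 0.21 (-0.23 without TNF + IL-6 High replicate 2 and -0.54 without IL-6 High replicate 4). Hcrt, the orexin precursor of lateral hypothalamic neurons, had 8.00, 9.51 and 10.06 in TNF + IL-6 High and 8.92, 9.78 and 9.85 in IL-6 High, a difference of -0.28 ± 0.25. Without TNF + IL-6 High replicate 2 it was -0.01, and without TNF + IL-6 High replicate 1 it was -0.42. Pnoc, which makes nociceptin, differed by -0.17 ± 0.10 (-0.086 without TNF + IL-6 High replicate 2). Agrp, made by the Npy neurons, is not analysed here. Receptors of feeding signals were higher in 7 of 24 (median -0.04), or 12 of 24 after median centring, with 0 at an unadjusted p under 0.05.

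Transcription factors that mark hypothalamic neurons were higher in 7 of 25 genes, with a median of -0.08. At an unadjusted p under 0.05, 2 were lower, as were 1.8% of all genes. Dlx1, a factor of GABA neurons, had 7.62, 8.43 and 8.56 in TNF + IL-6 High and 8.21, 8.71 and 9.08 in IL-6 High, a difference of -0.37 ± 0.15. It was -0.23 without TNF + IL-6 High replicate 2 and -0.46 without IL-6 High replicate 4. Otp, needed for neurons of the paraventricular nucleus, differed by -0.32 ± 0.14. Sim1, another factor of that nucleus, differed by -0.17 ± 0.13, and by -0.04 without TNF + IL-6 High replicate 2, where it was lowest at 6.41. Without that array 10 of 25 were higher and the median was -0.01, and without it and IL-6 High replicate 4 it was 6 of 25 and -0.07. Without TNF + IL-6 High replicate 1 the median was -0.18 and 5 of 24 were higher. Other hypothalamic hormones and peptides were higher in 5 of 16 (median -0.06).

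**Figure D3:**
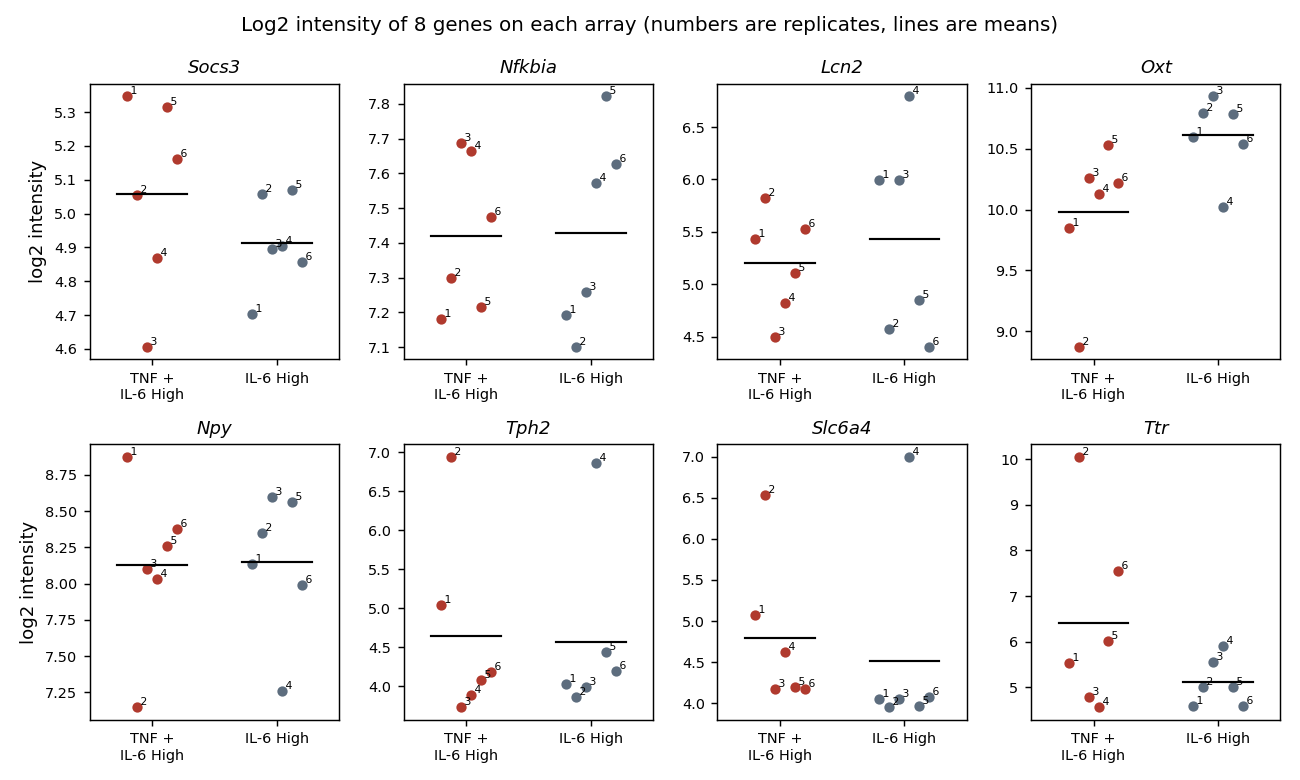
Log2 intensity (vertical axis) of Socs3, Nfkbia, Lcn2, Oxt, Npy, Tph2, Slc6a4 and Ttr on each array of TNF + IL-6 High (left) and IL-6 High (right), with the replicate number beside each point and a line at the group mean (n = 6 each). Tph2 and Slc6a4 were high on TNF + IL-6 High replicate 2 and IL-6 High replicate 4, and the groups overlapped in all 8 genes.

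Serotonin genes were set by a few arrays of both groups. Tph2, the rate-limiting enzyme of serotonin synthesis in neurons, had 3.73, 4.13 and 6.94 in TNF + IL-6 High and 3.86, 4.11 and 6.86 in IL-6 High. The highest value of each group came from its array that stood apart, replicate 1 of TNF + IL-6 High had 5.04, and no other array was above 4.44. The difference was 0.08 ± 0.52, and it was -0.38 without TNF + IL-6 High replicate 2 and 0.54 without IL-6 High replicate 4. Slc6a4, the serotonin reuptake transporter, had 4.17, 4.41 and 6.53 in TNF + IL-6 High and 3.95, 4.05 and 7.0 in IL-6 High, high on the same 2 arrays. Its difference was 0.28 ± 0.48, and it was -0.07 without TNF + IL-6 High replicate 2 and 0.78 without IL-6 High replicate 4. The cell bodies of serotonin neurons lie in the raphe nuclei of the brainstem. The mean level of 12 serotonergic neuron markers was 0.54 and 0.34 (log2, relative to the mean of the 12 arrays) on replicates 2 and 1 of TNF + IL-6 High, while IL-6 High replicate 4 had 0.82 and no other array exceeded 0.02. Tph2 and Slc6a4 are themselves on this list, so its level on these arrays is not independent of theirs. The part of raphe tissue in the values of Tph2 and Slc6a4 was not tested. Without TNF + IL-6 High replicate 2 and IL-6 High replicate 4 neither gene passed the minimum intensity.

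Among the 16 measured genes that make, carry and degrade serotonin 6 were higher (median -0.02). Of these 16, 2 were lower at an unadjusted p under 0.05, as were 1.8% of all genes. The median was 0.01 after median centring, -0.10 with 4 of 16 higher without TNF + IL-6 High replicate 2, and -0.065 with 3 of 14 higher without this array and IL-6 High replicate 4. Maob, the monoamine oxidase that degrades amines, had 7.70, 8.08 and 8.26 in TNF + IL-6 High and 8.06, 8.29 and 8.49 in IL-6 High, a difference of -0.22 ± 0.10. Pcbd1, which regenerates the cofactor of the hydroxylases, had 8.34, 8.60 and 9.16 in TNF + IL-6 High and 8.56, 9.02 and 9.12 in IL-6 High, a difference of -0.28 ± 0.12. The groups overlapped in both. Serotonin receptors were higher in 6 of 13 (median -0.03), with Htr7, a receptor coupled to cyclic AMP, differing by -0.17 ± 0.08. In the kynurenine pathway, the other main fate of tryptophan, 2 of 6 measured genes were higher, and Qprt, which leads to NAD, differed by -0.24 ± 0.11. Among 11 dopamine genes 5 were higher (median -0.04), and the receptors Drd1 and Drd3 differed by 0.28 ± 0.13 and 0.23 ± 0.13.

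With all 12 arrays in, glucocorticoid response genes had the lowest median of the lists, and they still had it in 2 of the 12 settings that leave out 1 array. Of 18 genes 4 were higher, with a median of -0.12 (6 and -0.08 after median centring). At an unadjusted p under 0.05, 2 were lower, as were 1.8% of all genes. Angptl4, an inhibitor of lipoprotein lipase, had 4.70, 4.86 and 5.16 in TNF + IL-6 High and 4.94, 5.19 and 5.53 in IL-6 High, a difference of -0.32 ± 0.11. Pdk4, which limits glucose oxidation, had 5.35, 5.62 and 5.90 in TNF + IL-6 High and 5.53, 5.91 and 6.30 in IL-6 High, a difference of -0.28 ± 0.12. Zbtb16 and Ddit4, a transcription factor and an inhibitor of mTOR signalling, differed by -0.21 ± 0.12 (-0.098 without TNF + IL-6 High replicate 2) and -0.15 ± 0.10. The median stayed between -0.14 and -0.07 over the alternatives. Immediate early genes, which mark recent neuronal activity, were higher in 15 of 23 (median 0.06, but -0.02 with an intensity over 50). Egr3 and Ier2 differed by 0.19 ± 0.11 and 0.20 ± 0.11. Circadian clock genes were higher in 7 of 19 (median -0.02).

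Most of the genes with the largest folds are known from the choroid plexus and meninges. By a fold over 1.5, 9 genes (0.0615%) were higher in TNF + IL-6 High, and all 9 are described here. The number was 18 without IL-6 High replicate 1, 15 without TNF + IL-6 High replicate 3, 5 without TNF + IL-6 High replicate 4 and 4 without either replicate 3 or replicate 6 of IL-6 High. Ttr, transthyretin, the main secreted protein of the choroid plexus, had 4.57, 5.78 and 10.05 in TNF + IL-6 High and 4.60, 5.00 and 5.90 in IL-6 High. It was high on replicates 2 and 6 of TNF + IL-6 High, and the other 4 arrays lay between 4.57 and 6.02, nearly within the range of IL-6 High. The difference was 1.30 ± 0.67, with a 95% interval of -0.10 to 2.71, and 0.58 without replicate 2. Kcnj13, which encodes a channel for potassium in choroid plexus and leptomeninges, had 5.62, 6.94 and 7.55 in TNF + IL-6 High and 4.58, 5.98 and 7.18 in IL-6 High, a difference of 0.81 ± 0.39 (0.53 without IL-6 High replicate 6). Markers of the choroid plexus as a list were higher in 7 of 14 genes (median 0.00), with summed intensities of 494 to 1676 (median 621) in TNF + IL-6 High and 457 to 620 (median 536) in IL-6 High. Car12, a carbonic anhydrase on this list, differed by 0.32 ± 0.17 and was highest, at 5.79, on TNF + IL-6 High replicate 6 (0.17 without it). Ttr is itself on this list and made up 1057 of the sum of 1676 on TNF + IL-6 High replicate 2. The other 13 genes summed to 466 to 619 in TNF + IL-6 High and 433 to 588 in IL-6 High, and the part of choroid plexus tissue was not tested.

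Of the other genes past this fold, Osr1, Prg4, Fmod and Ogn are markers of meningeal fibroblasts. Osr1, a transcription factor, had 5.85, 6.58 and 7.66 in TNF + IL-6 High and 4.43, 6.15 and 7.23 in IL-6 High (0.69 ± 0.38), and the difference was 0.39 without IL-6 High replicate 6. Prg4 and Fmod, a lubricating proteoglycan and a collagen-binding one, differed by 0.63 ± 0.43 and 0.61 ± 0.25. Without IL-6 High replicate 6 the difference of Prg4 was 0.24, and with single arrays left out that of Fmod was between 0.45 and 0.79. Ogn, osteoglycin, had 6.71, 7.40 and 8.30 in TNF + IL-6 High and 5.42, 6.80 and 7.95 in IL-6 High (0.61 ± 0.38), and 0.32 without IL-6 High replicate 6. Crym, which binds thyroid hormone and is made by tanycytes, had 5.64, 6.23 and 6.81 in TNF + IL-6 High and 5.09, 5.54 and 6.33 in IL-6 High, a difference of 0.63 ± 0.22. Usp17ld, a deubiquitinase of a multigene family whose copies share sequence, differed by 0.59 ± 0.30, of which 1 array carried much: replicate 5 of TNF + IL-6 High had 7.97 against 6.26 on the next, and without it the difference was 0.24.

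The microRNA gene Mir204, also past this fold, was chosen after its values were seen. It had 4.73, 5.66 and 5.94 in TNF + IL-6 High and 4.33, 4.85 and 5.47 in IL-6 High, a difference of 0.66 ± 0.22 with a 95% interval of 0.20 to 1.13. The array labels RNA of the locus and does not separate the hairpin from its mature products. The mature sequences are shown because they are what the locus makes: they come from RefSeq (GRCm38.p6), at chr19:22750610-22750631 and chr19:22750649-22750669 on the plus strand, with capitals marking the seed (bases 2 to 8).
mmu-miR-204-5p: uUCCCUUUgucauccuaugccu
mmu-miR-204-3p: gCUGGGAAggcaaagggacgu
The 2 arms do not share a seed. The difference of Mir204 was between 0.56 and 0.82 when any 1 array was left out.

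Markers of meningeal fibroblasts, the cells that line the brain surface, had the largest median of all lists, also with each of the 12 arrays left out in turn. Of 38 genes 35 were higher in TNF + IL-6 High, with a median of 0.30 (34 of 38 and 0.29 without TNF + IL-6 High replicate 2). At an unadjusted p under 0.05, 6 of the 38 markers were higher, as were 0.724% of all genes. Their summed intensity was 5135 to 9169 (median 6841) in TNF + IL-6 High and 4247 to 7890 (median 5507) in IL-6 High. Replicates 3, 4 and 6 of IL-6 High were the 3 lowest of all arrays in this sum, and replicate 4 of TNF + IL-6 High the highest, so the groups overlapped. Leaving out any 1 array, the median ranged between 0.22 (without IL-6 High replicate 6) and 0.40 (without IL-6 High replicate 1). Col6a2, a collagen of vessel and meningeal matrix that is not on the list, had 5.85, 6.04 and 6.22 in TNF + IL-6 High and 5.54, 5.81 and 5.88 in IL-6 High, a difference of 0.30 ± 0.09. Col1a2, a chain of type I collagen, differed by 0.34 ± 0.12, and the retinoic acid synthesis and binding genes Aldh1a2 and Crabp2 by 0.53 ± 0.26 and 0.42 ± 0.17 (0.28 for Crabp2 without IL-6 High replicate 4). Slc22a6, an organic anion transporter, differed by 0.47 ± 0.18. Whether the dissected pieces held different amounts of meninges was not tested.

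Endothelial markers were higher in 20 of 21 genes, with a median of 0.15, and without TNF + IL-6 High replicate 2 in 19 of 21 with a median of 0.06, while the median was 0.22 without TNF + IL-6 High replicate 1. Their summed intensity was 3827 to 5940 (median 4779) in TNF + IL-6 High and 3683 to 5582 (median 4636) in IL-6 High. Kdr, the VEGF receptor of endothelial cells, had 5.84, 6.28 and 6.96 in TNF + IL-6 High and 5.60, 5.97 and 6.40 in IL-6 High, a difference of 0.37 ± 0.17, and Esam, a junction protein, differed by 0.22 ± 0.14 (0.25 and 0.16 without TNF + IL-6 High replicate 2). Markers of smooth muscle cells and pericytes were higher in 12 of 17 (median 0.07). Oligodendrocyte markers were higher in 16 of 16 genes (median 0.12), but without TNF + IL-6 High replicate 2 in 8 of 16 (median 0.00), and without it and IL-6 High replicate 4 in 14 of 16 (median 0.10). Without IL-6 High replicate 4 alone the median was 0.22. The list stood at 0.70 on TNF + IL-6 High replicate 2 and at 0.44 on IL-6 High replicate 4, relative to the mean of the 12. Ugt8a, an enzyme of myelin lipids, had 9.04, 9.54 and 10.45 in TNF + IL-6 High and 8.84, 9.08 and 10.03 in IL-6 High, a difference of 0.42 ± 0.20, which was 0.26 without TNF + IL-6 High replicate 2 and 0.59 without IL-6 High replicate 4. The part of these 2 arrays in the other results was measured only by leaving them out.

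Markers of other cells and regions had medians on both sides of 0. Hindbrain and spinal cord markers were higher in 4 of 6 genes (median 0.15, and 0.11 to 0.19 leaving out single arrays). Microglia and macrophage markers were higher in 15 of 19 genes (median 0.04), but in 9 of 19 (median -0.005) without IL-6 High replicate 1. Astrocyte markers were higher in 4 of 18 (median -0.03) and markers of tanycytes and ependymal cells in 10 of 22 (median -0.03). Those of striatum and basal forebrain were higher in 12 of 15 (median 0.11). The striatal median was 0.012 with 8 of 15 higher without TNF + IL-6 High replicate 4, where the list stood at 0.46. Thalamus markers were higher in 6 of 18 (median -0.07), and in 0 of 18 (median -0.22) without TNF + IL-6 High replicate 2, where the list stood at 0.82. Without TNF + IL-6 High replicate 1 their direction turned, with 10 of 18 higher and a median of 0.040. Anterior pituitary markers were higher in 4 of 12 (median -0.09), with summed intensities of 1629 to 5258 (median 1973) in TNF + IL-6 High and 1663 to 3841 (median 2162) in IL-6 High. Their median was -0.16 without TNF + IL-6 High replicate 3, where the list stood at 0.87, and 0.067 without IL-6 High replicate 1, where it stood at 0.97. Genes of TGF-beta response and extracellular matrix were higher in 13 of 22 (median 0.05, and -0.01 without TNF + IL-6 High replicate 2), and targets of SRF and MRTF in 13 of 17 (median 0.04). Regulators that the study listed from these arrays, which are therefore no independent set, were higher in 4 of 10 genes (median -0.01).

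**Figure D4:**
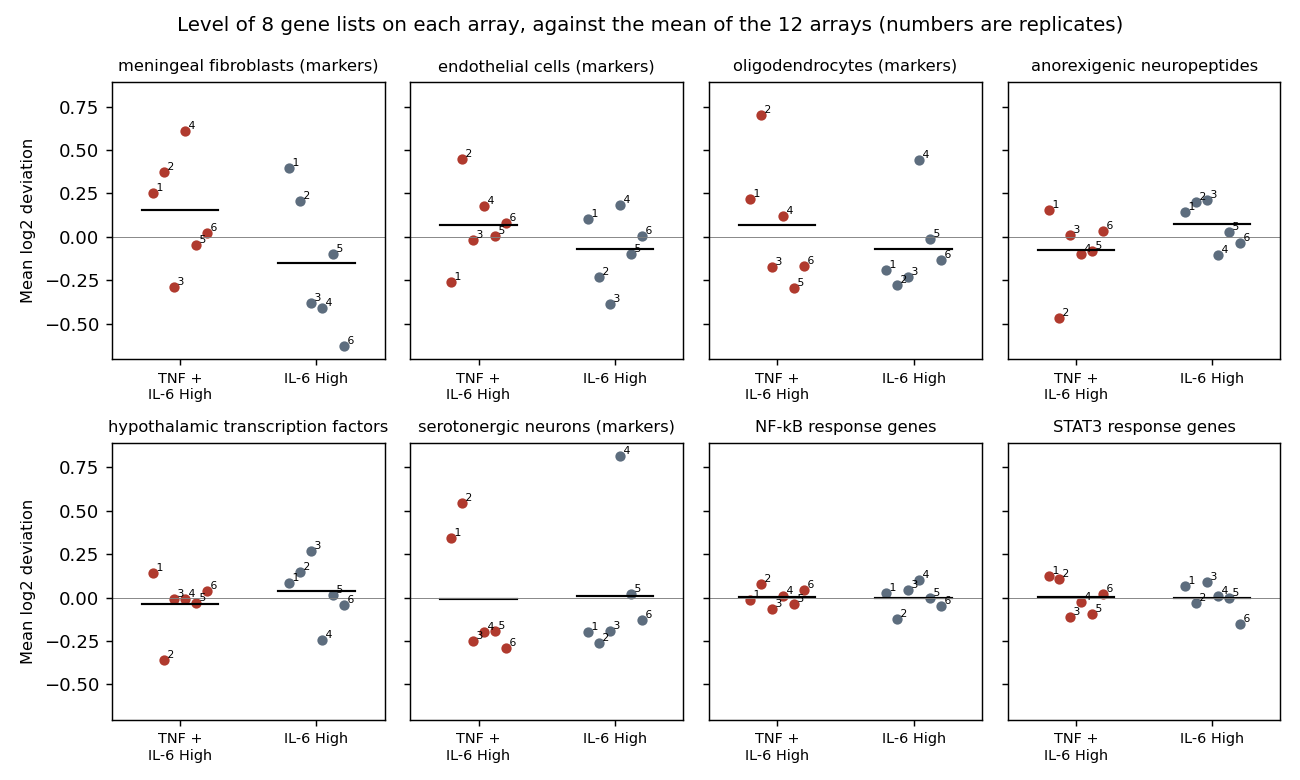
Mean log2 deviation of the genes of 8 lists from their mean over the 12 arrays (vertical axis), for each array of TNF + IL-6 High (left) and IL-6 High (right), with replicate numbers and a line at the group mean. TNF + IL-6 High replicate 2 and IL-6 High replicate 4 are highest in the oligodendrocyte and serotonergic lists. The serotonergic list holds Tph2 and Slc6a4. Over the arrays the NF-kB response genes lie between -0.13 and 0.10 and the STAT3 response genes between -0.15 and 0.12.

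At an unadjusted p under 0.05 together with a fold over 1.2, 56 genes (0.382%) were higher and 55 (0.376%) lower in TNF + IL-6 High. Among the genes of smallest p, Ankrd33b, an ankyrin repeat protein, had 4.81, 4.92 and 5.09 in TNF + IL-6 High and 4.30, 4.50 and 4.88 in IL-6 High (0.37 ± 0.10). Ces1b, a carboxylesterase, differed by 0.42 ± 0.12, and Cdc42ep1, a Cdc42 effector, by 0.33 ± 0.10. Adm, the vasodilator peptide adrenomedullin, had 4.68, 4.84 and 5.31 in TNF + IL-6 High and 4.09, 4.56 and 4.74 in IL-6 High, a difference of 0.42 ± 0.13, and Aplnr, the apelin receptor of vessels, differed by 0.27 ± 0.09. Adam12, a metalloprotease, and the interferon-inducible gene Ifi207 differed by 0.29 ± 0.09 and 0.40 ± 0.14. Pxt1 and Pilrb1 differed by 0.30 ± 0.10 and 0.32 ± 0.11. None of these 10 genes, with Col6a2 above, separated the groups.

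On the lower side, Hormad1, a meiotic chromosome protein, had 4.37, 4.49 and 4.76 in TNF + IL-6 High and 4.71, 4.88 and 5.09 in IL-6 High, a difference of -0.35 ± 0.09. Several of the genes of smallest p are parts of motile cilia. Dnah10, an axonemal dynein heavy chain, had 4.81, 5.00 and 5.09 in TNF + IL-6 High and 5.12, 5.27 and 5.39 in IL-6 High, so that every TNF + IL-6 High array lay below every IL-6 High array, and the difference was -0.27 ± 0.08. Ttll8, a glycylase of axonemal tubulin, also did not overlap (-0.27 ± 0.08), and Wdr63, an axonemal dynein intermediate chain, differed by -0.37 ± 0.11. Frmpd2 and Mall, a scaffold and a membrane protein, differed by -0.39 ± 0.11 and -0.38 ± 0.11. Kcnj5, a potassium channel, differed by -0.35 ± 0.11, and Plg, plasminogen, by -0.30 ± 0.09. On every TNF + IL-6 High array Plg lay below the minimum intensity (highest log2 value 4.16), so it was tested only through its IL-6 High arrays. Cct2, a chaperonin subunit, and Setd3, a histidine methyltransferase of actin, differed by -0.22 ± 0.07 and -0.25 ± 0.08.

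The groups did not overlap in 1 gene (0.00683%) with all TNF + IL-6 High arrays higher and in 6 genes (0.041%) with all lower. Besides Dnah10 and Ttll8 these were chosen after their values were seen. Aspg, an asparaginase, had 4.81, 4.85 and 4.96 in TNF + IL-6 High and 4.29, 4.68 and 4.78 in IL-6 High (0.26 ± 0.10). Cdc34, a ubiquitin-conjugating enzyme, had 6.33, 6.49 and 6.64 in TNF + IL-6 High and 6.64, 6.71 and 6.75 in IL-6 High (-0.21 ± 0.07). Dcun1d3, Trim66 and Zfp874a differed by -0.13 ± 0.07, -0.16 ± 0.06 and -0.24 ± 0.08, and each gap between the groups was small beside the spread within them.

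The effect of TNF at the high dose of IL-6 was then set against its effect at the low dose, which uses no array in common. Of 14896 genes, 0 (0%) had an adjusted p under 0.05 for the difference between the effects (limma, smallest adjusted p 0.9996), and 386 (2.59%) had an unadjusted p under 0.05 (639 without IL-6 Low replicate 2). The median standard error of this difference was 0.13. The effects had a correlation of 0.11 across genes, which are no independent replicates, and 55.7% of genes had the same direction in both. Oxt differed by -0.64 at the high dose and -0.21 at the low dose, Socs3 by 0.14 and 0.04, and Npy by -0.02 and -0.12. Lcn2 differed by -0.24 ± 0.34 at the high dose and 0.61 ± 0.43 at the low dose, a difference between the effects of -0.85 ± 0.60. Pomc differed by -0.31 ± 0.31 (-0.03 without IL-6 High replicate 1) and 0.87 ± 0.63, a difference of -1.18 ± 0.89. Both are less than 1.5 standard errors from 0.

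Several lists had opposite medians at the high and low dose of IL-6, of which the difference was not tested as a list. Meningeal fibroblast markers had a median of 0.30 at the high dose and -0.19 at the low dose, where 7 of 38 were higher. For the difference between the effects, 4 of 38 had an unadjusted p under 0.05, as had 2.59% of all genes. Endothelial markers had medians of 0.15 and -0.06, and oligodendrocyte markers 0.12 and -0.08. Thalamus markers had medians of -0.07 and 0.20, and anterior pituitary markers -0.09 and 0.82. NF-kB response genes had medians of 0.00 and -0.03 and STAT3 response genes -0.02 at both doses. The value of 0.82 rested on 1 array, and without TNF + IL-6 Low replicate 3 it was -0.048. With single arrays of the low dose left out, the median of the meningeal markers ran between -0.30 and -0.057 and that of the thalamus markers between 0.057 and 0.32. Those of the endothelial and oligodendrocyte markers turned positive, at 0.027 without TNF + IL-6 Low replicate 1 and 0.011 without TNF + IL-6 Low replicate 3. With all arrays in, the median farthest from 0 was that of the meningeal markers at the high dose and that of the anterior pituitary markers at the low dose.

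**Figure D5:**
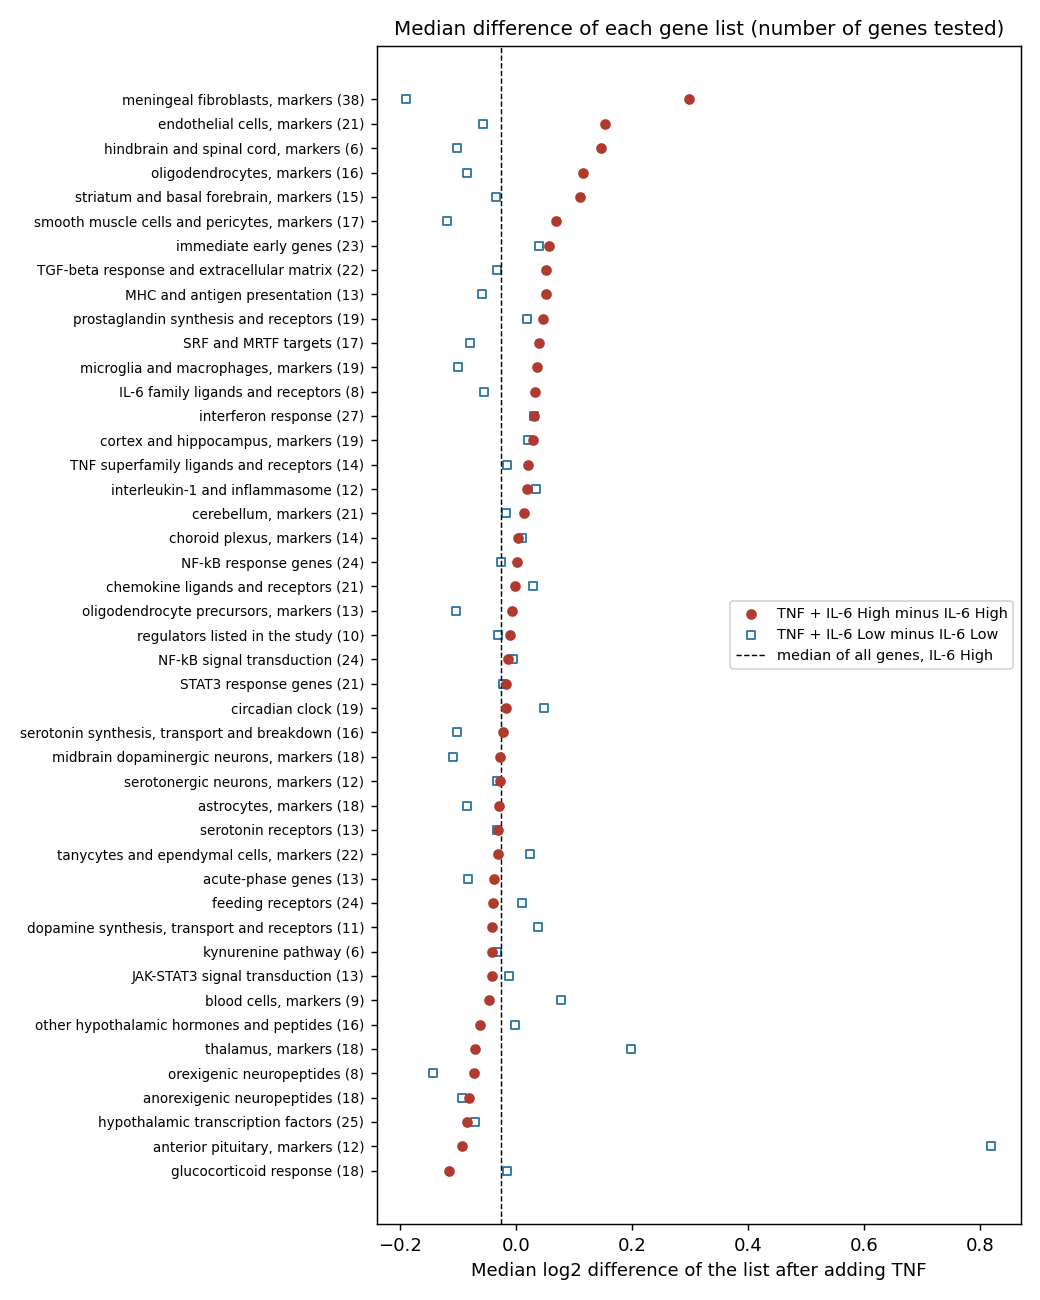
Median log2 difference of the genes of each list after adding TNF to the high dose (filled circles) and to the low dose of IL-6 (open squares), with the number of genes tested in brackets and a dashed line at the median of all genes at the high dose (-0.03). Meningeal fibroblast markers lie at 0.30 and -0.19, and anterior pituitary markers at -0.09 and 0.82 (-0.048 without TNF + IL-6 Low replicate 3).

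Among the genes of smallest p for the difference between the effects, Cdc42ep1 differed by 0.33 at the high dose and -0.24 at the low dose, a difference of 0.58 ± 0.14. Oas1a, an antiviral enzyme induced by interferon, differed by 0.22 and -0.57 (0.79 ± 0.21). On every IL-6 High array Oas1a lay below the minimum intensity (highest log2 value 4.15). Adam12 and Lamb2, a laminin chain of basement membranes, gave differences between the effects of 0.40 ± 0.12 each. In the other direction, Cfap47, a protein of motile cilia, differed by -0.14 at the high dose and 0.38 at the low dose (-0.52 ± 0.14). Smarca5, a chromatin remodelling ATPase, differed by -0.25 and 0.22 (-0.47 ± 0.13), and Zfp455, a zinc finger gene, by -0.23 and 0.44 (-0.68 ± 0.19). Frrs1 and Ttc30b, a ferric reductase-like protein and a part of the intraflagellar transport machinery, gave -0.41 ± 0.12 and -0.40 ± 0.12. All had an adjusted p of 0.9996 (limma).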

How the data were processed

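From the scanned arrays the authors computed and deposited log2 intensities with RMA, whose version no source used here gives. The table holds 35556 transcript clusters, whereas the methods describe remapped probe sets with at least 7 probes, which were not used here. The 21218 clusters that name 1 gene gave 18820 genes, with the cluster of highest mean where a gene had several, and the 1881 naming several genes and 12457 naming none were left out. Genes with an intensity over 20 on at least 3 of the 12 arrays were tested with limma 3.58.1 in R 4.3.3 (eBayes with an intensity trend), and adjustment was by Benjamini and Hochberg over all genes tested. The dose comparison used 24 arrays. The script was tested on simulated data. Precision is limited by the number of arrays, and the mice are taken as independent animals.

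The arrays compared, the 45 gene lists (846 genes, 75 of them not named by a cluster of 1 gene) and the tests were chosen with earlier results of these data known. The genes named are the 10 of smallest p in each direction, those past a fold of 1.5, and up to 4 of smallest p in each list. Named as well are the genes the study names on expression and the receptors and feedback genes of both cytokines. Of the dose comparison, the 5 of smallest p in each direction are described, except Serpina9. Predicted genes, olfactory and vomeronasal receptors and small RNAs were left out, except where said. Alternatives were other intensity minimums, the mean of a gene's clusters, median centring, quantile normalization, array weights, eBayes without a trend or robust, more arrays in the model, a replicate block and leaving out each array. Promoters and microRNAs were matched by symbol to RefSeq tables of GRCm38.p6.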

Additional observations from a re-analysis of the deposited data

Results flagged for a closer look

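In 22 of 212 pairs of a named gene and a group of 6 arrays, the highest or lowest array lay apart from the rest by more than Dixon's criterion allows (its gap to the nearest array over the range of the group), which chance does in about 1 in 20 groups. TNF + IL-6 High replicate 2 was such an array in 8 genes. It was lowest in Avp (8.34, nearest array 9.58), Trh (7.15, nearest 8.10), Dlx1 (7.62, nearest 8.25), Sim1 (6.41, nearest 7.19), Nts (6.56, nearest 7.24), Stat5a (4.75, nearest 4.97) and Trim66 (7.21, nearest 7.39). It was highest in Pla2g4a (6.45, nearest 5.74).

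IL-6 High replicate 4 stood apart in 4 genes. It was highest in Slc6a4 (7.0, nearest 4.07), Tph2 (6.86, nearest 4.44) and Ugt8a (10.03, nearest 9.19), and lowest in Avp (8.97, nearest 9.87).

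TNF + IL-6 High replicate 1 was highest in Angptl4 (5.16, nearest 4.87), Cct2 (10.12, nearest 9.87) and Psmb10 (7.80, nearest 7.37) and lowest in Esam (5.72, nearest 6.27). Other arrays of TNF + IL-6 High were highest in Usp17ld (replicate 5, 7.97, nearest 6.26), Car12 (replicate 6, 5.79, nearest 5.03) and Ifi207 (replicate 4, 5.28, nearest 4.66). In IL-6 High, replicate 2 was highest in Dcun1d3 (6.91, nearest 6.78), replicate 3 in Smarca5 (7.91, nearest 7.65), and replicate 5 was lowest in Drd3 (4.80, nearest 5.08).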

How the results depend on the processing

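In every alternative tried 0 genes had an adjusted p under 0.05 (limma), both for TNF + IL-6 High against IL-6 High and for the dose comparison. For TNF + IL-6 High against IL-6 High, the smallest adjusted p was between 0.561 (without TNF + IL-6 High replicate 1) and 0.9999 (all 36 arrays in the model), and 0.656 with array weights. The counts at an unadjusted p under 0.05, 106 higher and 264 lower, moved with the setting: the number higher was 191 with no filter and 44 with an intensity over 50. Median centring gave 212 higher and 120 lower, quantile normalization 178 and 167, and array weights 270 and 810. All 36 arrays in the model, which include a TNF array that stands apart, gave 26 and 53. With that array (TNF replicate 4) left out, 35 arrays in the model gave 96 and 239. The 7 genes whose groups did not overlap became 4 with an intensity over 50, 15 after median centring and 12 after quantile normalization. The 386 genes of the dose comparison at an unadjusted p under 0.05 became 76 with all 36 arrays and 352 with these 35 arrays. The cause of these shifts was not tested.

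Leaving out each array in turn gave 67 to 205 genes higher and 149 to 983 lower at an unadjusted p under 0.05, 4 to 18 higher and 0 to 3 lower by a fold over 1.5, and 298 to 639 in the dose comparison, the highest without IL-6 Low replicate 2. Genes whose difference was close to 0 changed sign. Npy was 0.015 after median centring, 0.018 after quantile normalization, 0.011 with array weights, and -0.19 to 0.18 leaving out single arrays. Nfkbia was 0.021, 0.026 and 0.12 in the same settings and -0.074 to 0.070. Tnfrsf1a was -0.0071 with array weights and -0.053 to 0.078, and Tph2 was -0.19 with array weights and -0.38 to 0.54. The ranges leaving out single arrays were -0.0085 to 0.082 for Il6st, -0.44 to 0.035 for Lcn2, -0.066 to 0.78 for Slc6a4 and -0.028 to 0.050 for Tnfaip3. A setting chosen after seeing the data, without TNF + IL-6 High replicate 2 and IL-6 High replicate 4, gave 4 genes higher by a fold over 1.5, 0.0038 for Npy and 0.044 for Nfkbia. Leaving out single arrays of the low dose for the list medians was also chosen after seeing the data. With an intensity over 50 no gene of the hindbrain and spinal cord markers was left, so that list has no value there.

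The labels number replicates 1 to 6 in each group without saying what a number shares. Deviations of arrays with the same number had correlations of -0.30, -0.08, -0.08, 0.08, 0.17 and 0.07, and no array correlated best with its own number, so the main model has no replicate block. With the replicate block 137 genes were higher and 213 lower at an unadjusted p under 0.05, 0 genes had an adjusted p under 0.05 and the smallest was 0.999. The limit of these data is the 6 arrays per group, with a median standard error of 0.09.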

Other observations

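Several gene families, taken by their symbols and chosen after their values were seen, had lower means in TNF + IL-6 High. Of all genes, 62.4% had a lower mean with TNF added to the high dose of IL-6 and 53.5% with TNF added to the low dose. Genes of motile cilia were among them: 8 of 9 Dnah genes, which encode axonemal dynein heavy chains, were lower (median -0.16, 3 at an unadjusted p under 0.05), as were 4 of 4 Rsph genes of the radial spokes (median -0.27, 3 at an unadjusted p under 0.05) and 25 of 28 Cfap genes (median -0.10, none at an unadjusted p under 0.05). Over all genes tested, 1.8% were lower at an unadjusted p under 0.05. After median centring 8, 4 and 24 of the Dnah, Rsph and Cfap genes were lower. Among genes of intraflagellar transport (Ift) 12 of 14 were lower (median -0.09). With TNF added to the low dose of IL-6, 6 of 9 Dnah, 3 of 4 Rsph and 16 of 28 Cfap genes were lower, with medians of 0.00, -0.07 and -0.02, and 6 of 14 Ift genes were lower (median 0.03).

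Genes of ribosomes and of mitochondrial complex I also had lower means, at both doses of IL-6. Of the large ribosomal subunit 39 of 41 Rpl genes were lower at the high dose (median -0.10) and 33 at the low dose (median -0.08). Of the small subunit 25 of 25 Rps genes were lower at the high dose (median -0.16) and 22 at the low dose (median -0.12). The Ndufa genes of complex I were lower in 13 of 13 at the high dose (median -0.11) and 12 at the low dose (median -0.10), and the Ndufb genes in 10 of 10 (median -0.11) and 8 (median -0.13). After median centring of the high-dose arrays 37 Rpl, 25 Rps, 11 Ndufa and 10 Ndufb genes were lower. Collagen genes (Col) were higher in 31 of 41 (median 0.05) at the high dose and in 23 of 41 (median 0.02) at the low dose. Members of a family share their tissue source and array, and families were not tested as sets.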
